A study of Homo sapiens with 6 samples.

Results

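The BCL2 family genes examined here are BCL2, BCL2L1, MCL1, BCL2L11, BID, BAD, BIK, PMAIP1, BAX and BAK1. They were taken by gene symbol, each symbol had a single row, and they make up 10 of the 33007 genes in the deposited RNA-seq table. The study asked which transcripts change when the zinc finger gene ZNF706 is depleted in hepatocellular carcinoma (HCC) cells. LM3, an established human HCC cell line, was used as vector control cells (control group, 3 samples) or with a stable short hairpin knockdown of ZNF706 (knockdown group, 3 samples). Per the study's methods, the hairpin was delivered by lentivirus and the infected cells were selected with puromycin. How the vector control cells were made is not described separately. The genotype given for both groups was WT. Which hairpin was sequenced, and whether the 3 samples of a group were separate cultures, is not given in the sources used here, so the p-values measure the spread between these samples, which may be technical. The libraries held 62684076, 64713764 and 63054445 counts for the control group and 68548419, 65861994 and 69057423 for the knockdown group, so every knockdown sample was deeper than every control sample.

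The family decides whether the outer membrane of the mitochondrion is opened during apoptosis. Guardians such as BCL2, BCL-XL (the long product of BCL2L1) and MCL1 bind and restrain their relatives. BH3-only proteins such as BIM (from BCL2L11), BID, BAD, BIK and NOXA (from PMAIP1) carry the short BH3 helix and either occupy the guardians or activate the effectors. The effectors BAX and BAK (from BAK1) form the pores that release cytochrome c. Much of their control lies in the proteins, through phosphorylation, cleavage and turnover, which transcript counts do not measure.

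The 10 genes share the BH3 helix, through which the family members bind each other. A script searched each coding sequence in GENCODE release 29 for the codons of leucine, any 3 residues, glycine or serine, aspartate. The next codon had to be for aspartate, glutamate, lysine, serine or glycine. For each gene the longest complete coding sequence that held the pattern was used, so its presence was part of the choice. In each of the 10 it occurred 1 time, within a single exon. The 18 bases up to the aspartate codon are shown 5′ to 3′ on the coding strand to let the members be compared, and capitals mark the codons of the leucine and of the glycine or serine with the aspartate.
BCL2: CTCcgccaggccGGCGAC
BCL2L1: CTGagggaggcaGGCGAC
MCL1: TTAcgacgggttGGGGAT
BCL2L11: TTGcggcgtattGGAGAC
BID: CTCgcccaggtcGGGGAC
BAD: CTCcggaggatgAGTGAC
BIK: CTGgcctgcatcGGGGAC
PMAIP1: CTCaggagatttGGAGAC
BAX: CTCaagcgcatcGGGGAC
BAK1: CTCgccatcatcGGGGAC
All 10 sequences differed. BAD alone had a serine codon before the aspartate codon, and the other 9 had a glycine codon. On GRCh38 the guardian sequences lie at chr18:63318361-63318378 (BCL2, minus strand, exon 2 of 3), chr20:31721934-31721951 (BCL2L1, minus strand, exon 2 of 3) and chr1:150578877-150578894 (MCL1, minus strand, exon 1 of 3). The BH3-only sequences lie at chr2:111150103-111150120 (BCL2L11, plus strand, exon 3 of 4), chr22:17739427-17739444 (BID, minus strand, exon 4 of 6), chr11:64271634-64271651 (BAD, minus strand, exon 3 of 4), chr22:43127716-43127733 (BIK, plus strand, exon 3 of 5) and chr18:59902673-59902690 (PMAIP1, plus strand, exon 2 of 2). The effector sequences lie at chr19:48955787-48955804 (BAX, plus strand, exon 3 of 5) and chr6:33575399-33575416 (BAK1, minus strand, exon 4 of 6). The proteins of the transcripts used ranged from 54 residues (PMAIP1) to 350 (MCL1).

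ZNF706 (ENSG00000120963, chromosome 8, 101177878 to 101205682, minus strand) was the gene targeted, and had 3211, 3504 and 3357 counts in control cells and 2350, 2068 and 2298 in knockdown cells. Its level fell by 39.9% (log2 fold change -0.73, edgeR adjusted p = 3.7e-05), and it fell in all 16 alternatives tried. LM3 was also set against markers of cell types. The epithelial keratin genes KRT8 and KRT18 were abundant, and the 4 epithelial markers summed to 452.48, 458.9 and 479.45 FPKM (fragments counted, scaled to gene length and to library size) in control cells and 450.73, 466.02 and 468.45 in knockdown cells. None of these 4 passed the test. KRT8 and KRT18 made up nearly all of each sum. The other epithelial markers were low, EPCAM at a mean of 0.127 FPKM in control and 0.23 in knockdown cells. CDH1 was at 0.293 and 0.457. Hepatocyte markers were low for cells labelled HCC. The 10 of them summed to 3.91, 8.52 and 10.03 FPKM in control cells and 3.9, 4.12 and 2.89 in knockdown cells, with ALB, the gene for albumin, the most abundant at a mean of 2.17 FPKM. All 10 had a negative log2 fold change (as had 8948 of 18390 genes tested) and 3 passed the test as lower, namely APOH, SERPINA1 and APOB, beside 12.4% of all tested genes. Single libraries stood apart for others. ALB was at 0.77, 3.54 and 3.57 FPKM in control cells and 2.17, 2.45 and 0.5 in knockdown cells. AFP, TF, FGB and TTR were likewise lowest in control sample 1 and knockdown sample 3. The other markers held only part of this pattern. APOA1, APOB, APOH and SERPINA1 were also lowest in control sample 1. Among knockdown samples, however, APOA1, SERPINA1 and APOH were highest in sample 3, and APOB was equal in samples 1 and 3 at 0.11 FPKM. HNF4A was lowest in knockdown sample 3 but, among control samples, highest in sample 1. The part of these values in the results for the BCL2 family was not tested.

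Markers of other cells were low beside the keratins. PTPRC, the pan-leukocyte gene, had 8, 8 and 0 counts in control cells and 0 in each knockdown sample. The 5 leukocyte markers in the table summed to 11, 11 and 11.63 FPKM in control cells and 17.02, 18.53 and 17.09 in knockdown cells, of which CD68, a lysosomal gene that many cell types express, held most, at a mean of 13.8 FPKM. CD68 was the single leukocyte marker of 4 tested that rose, beside 10.4% of all tested genes. The 6 fibroblast markers summed to 9.41, 7.9 and 8.33 FPKM and then 9.85, 10.05 and 9.61, with COL1A1 the most abundant. Among 5 tested, COL1A1 and PDGFRB rose (again beside 10.4%). The other 3 had a negative log2 fold change and did not pass, and the median over the 5 was -0.04. The 3 endothelial markers in the table summed to 1.79, 1.91 and 2.06 FPKM and then 1.43, 1.61 and 1.69, with CDH5 the most abundant, and CDH5 fell while PECAM1 did not pass (beside 12.4% lower among all tested genes). The part of these genes in the results for the BCL2 family was not tested either.

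MCL1 was by far the most abundant of the 10 transcripts. Per length, its level was 175.48, 181.49 and 179.45 FPKM in the control samples, against 21.42, 21.26 and 19.29 FPKM for BCL2L1, the next in order. BAK1 (17.2 ± 0.156 FPKM, SD, n = 3), BAX (12.7 ± 0.258), PMAIP1 (11.2 ± 0.165) and BIK (8.2 ± 0.09) followed. Below them came BAD (4.81 ± 0.468), BCL2L11 (4.14 ± 0.101) and BID (2.86 ± 0.101), and BCL2 itself was almost silent at 0.307 ± 0.0513 FPKM. No neighbours in this order overlapped between control samples. The order of the means was the same in knockdown cells, but there BAK1 overlapped BAX, PMAIP1 overlapped BIK and BIK overlapped BAD. MCL1 made up 67.82%, 68.71% and 69.07% of the summed FPKM of the 10 genes in control cells and 64.63%, 64.7% and 63.95% in knockdown cells. Of the 3 guardian transcripts, MCL1 and BCL2L1 thus made up nearly all in both groups.

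**Figure D1:**
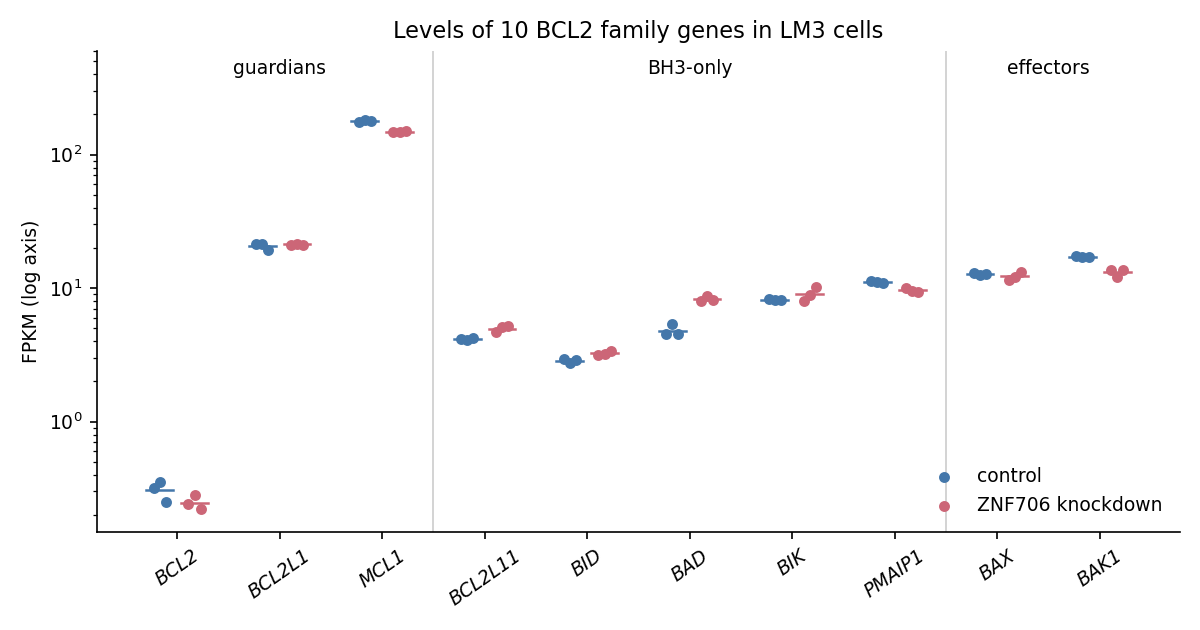
Levels of the 10 genes in FPKM on a log axis, grouped by role. Points are the 3 control and 3 knockdown samples and short lines are the group means. MCL1 lies above all others in every sample and BCL2 below all others, and the groups are farthest apart on this axis for BAD.

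The question for each gene was whether its count, scaled to the library, differed between knockdown and control cells by more than the samples of a group did. Of the 10 genes, 5 passed edgeR's quasi-likelihood test at a Benjamini-Hochberg adjusted p below 0.05 over all 18390 genes tested. BAD and BCL2L11 rose, and MCL1, PMAIP1 and BAK1 fell. In bulk samples, fewer cells that express a gene and less of its RNA per cell cannot be told apart. In what follows, an edgeR adjusted p is the p of this test and SE the standard error. Across the transcriptome 22.8% of the tested genes passed, 10.4% higher and 12.4% lower (1906 and 2286 genes). With scaling by library size alone the split was 2741 higher and 1518 lower, and the same number of the 10 genes, 5, passed. The median log2 fold change was -0.06 over the 10 genes and 0.01 over all genes tested. The values of 6 of the 10 genes did not overlap between the groups, where 39.4% of all tested genes had no overlap, 19.7% in each direction. With 10 genes that share neither role nor direction, nothing particular to the family is read from these counts.

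**Figure D2:**
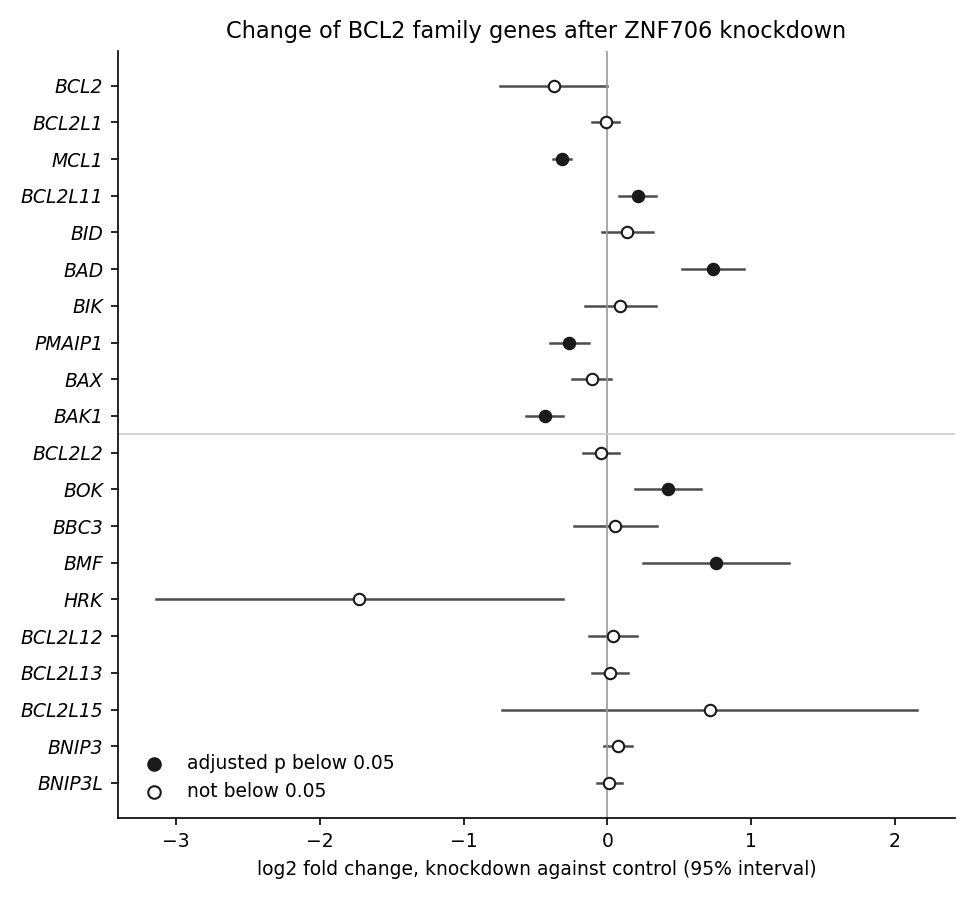
Log2 fold change of knockdown against control with its 95% interval, for the 10 genes above the line and the other BCL2 family genes tested below it. Filled points passed an adjusted p below 0.05. BAD stands highest among the 10 at 0.74 and BAK1 lowest at -0.44, and the widest intervals belong to HRK and BCL2L15, which have few counts.

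Among the guardians, 1 of 3 fell and none rose. MCL1 (ENSG00000143384, chromosome 1, 150574551 to 150579738, minus strand), a short-lived protein that restrains BAK and BIM, had 54558, 58449 and 56326 counts in control cells and 50512, 48819 and 51455 in knockdown cells. Every knockdown sample lay below every control sample, although the knockdown libraries were deeper. In CPM (counts scaled to library size, with TMM) the level was 905.7 ± 21.4 (SD, n = 3) in control and 727.4 ± 7.54 in knockdown cells. Its log2 fold change was -0.32 (SE 0.0288, 95% interval -0.38 to -0.25, edgeR adjusted p = 0.00012), a level 19.7% lower. It had the smallest adjusted p of the 10 genes and passed in all 16 alternatives, between -0.34 and -0.26. In proportion to BCL2L1, MCL1 stood at 8.192, 8.537 and 9.303 in the control samples and at 6.968, 6.972 and 7.061 in the knockdown samples, each a ratio of FPKM values.

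BCL2L1 (ENSG00000171552, chromosome 20, 31664452 to 31723989, minus strand), whose long product BCL-XL is a guardian, had 5054, 5195 and 4594 counts in control cells and 5500, 5313 and 5529 in knockdown cells. In CPM the knockdown samples lay inside the range of the control samples. The log2 fold change was -0.01 (SE 0.0418, 95% interval -0.10 to 0.08, edgeR adjusted p = 0.90), and its sign turned in 5 of the 16 alternatives. Gene counts do not separate BCL-XL from the short product of the same gene, which promotes death, and the same holds for the isoforms of MCL1 and BCL2L11.

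BCL2 (ENSG00000171791, chromosome 18, 63123346 to 63320128, minus strand), the founding guardian, had 273, 307 and 215 counts in control cells and 224, 246 and 209 in knockdown cells. The groups overlapped, since knockdown sample 2 exceeded control sample 3 in CPM. Its log2 fold change of -0.37 had an interval that reached 0 (SE 0.166, 95% interval -0.74 to 0.00, edgeR adjusted p = 0.14). It passed in none of the 14 alternatives in which it could be fitted. Its interval was wider than that of MCL1, which had far more counts.

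The BH3-only genes did not move as a group. Of 5, BAD and BCL2L11 rose, PMAIP1 fell, and BID and BIK did not pass. BAD (ENSG00000002330, chromosome 11, 64269830 to 64284665, minus strand), a sensitizer that binds BCL2 and BCL-XL and is held inactive by phosphorylation, had 552, 675 and 560 counts in control cells and 1086, 1114 and 1097 in knockdown cells. The lowest knockdown sample, at 15.5 CPM, was well above the highest control sample, at 10.6 CPM. BAD rose 1.67-fold, a log2 fold change of 0.74 (SE 0.0967, 95% interval 0.52 to 0.95, edgeR adjusted p = 0.00073). Only 2.62% of all tested genes passed with a change at least as large in either direction. The call held in all 16 alternatives, with values between 0.63 and 0.82.

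BCL2L11 (ENSG00000153094, chromosome 2, 111119378 to 111168445, plus strand) encodes BIM, which binds all guardians and can activate the effectors directly. It had 1963, 1994 and 2037 counts in control cells and 2452, 2545 and 2707 in knockdown cells, with no overlap. BCL2L11 rose by a log2 fold change of 0.21 (SE 0.0579, 95% interval 0.08 to 0.34, edgeR adjusted p = 0.025), or 15.9% higher. The call was lost in 5 of 16 alternatives, without a filter on low counts (adjusted p = 0.055) and without control sample 1 (0.078), control sample 2 (0.093), knockdown sample 2 (0.098) or knockdown sample 3 (0.083) in the same edgeR test.

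PMAIP1 (ENSG00000141682, chromosome 18, 59899996 to 59904305, plus strand) encodes NOXA, which neutralizes MCL1 and promotes its breakdown. It had 1763, 1803 and 1730 counts in control cells and 1718, 1569 and 1609 in knockdown cells, and was lower in every knockdown sample. The level was 28.3 ± 0.152 CPM (SD, n = 3) in control and 23.6 ± 0.778 in knockdown cells. This gave a log2 fold change of -0.26 (SE 0.0612, 95% interval -0.40 to -0.13, edgeR adjusted p = 0.013). When the trend of each library with GC content was removed it was -0.14 and did not pass (adjusted p = 0.15 in the same edgeR test).

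BID (ENSG00000015475, chromosome 22, 17734138 to 17774495, minus strand), which caspase 8 cleaves to link death receptors to mitochondria, had 920, 893 and 927 counts in control cells and 1105, 1060 and 1182 in knockdown cells. Its groups did not overlap, at 14.7 ± 0.552 and 16.1 ± 0.642 CPM (SD, n = 3), but the log2 fold change of 0.14 did not pass (SE 0.0795, 95% interval -0.04 to 0.32, edgeR adjusted p = 0.26). BIK (ENSG00000100290, chromosome 22, 43110750 to 43129712, plus strand), a BH3-only protein of the endoplasmic reticulum, had 561, 575 and 554 counts in control cells and 600, 633 and 764 in knockdown cells. The control samples of BIK lay close together, at 9.04 ± 0.0195 CPM (SD, n = 3), and the knockdown samples were spread on both sides of them, at 9.63 ± 1.19. The log2 fold change of 0.09 did not pass (SE 0.11, edgeR adjusted p = 0.61), and without knockdown sample 3 it was -0.01.

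Of the effectors, BAK1 fell and BAX did not pass. BAK1 (ENSG00000030110, chromosome 6, 33572547 to 33580293, minus strand), whose protein sits in the outer mitochondrial membrane, had 2730, 2778 and 2737 counts in control cells and 2381, 2023 and 2362 in knockdown cells. All 3 knockdown samples were below the control samples, with knockdown sample 2 the lowest. The level was 44.1 ± 0.443 CPM (SD, n = 3) in control and 32.6 ± 2.13 in knockdown cells, 26.1% lower. Its log2 fold change was -0.44 (SE 0.0568, 95% interval -0.56 to -0.31, edgeR adjusted p = 0.00071), which passed in all 16 alternatives, between -0.50 and -0.37. Of all tested genes, 6.34% passed with a change at least as large.

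BAX (ENSG00000087088, chromosome 19, 48954815 to 48961798, plus strand), which moves from the cytosol to mitochondria on activation, had 2391, 2382 and 2378 counts in control cells and 2341, 2339 and 2681 in knockdown cells. Knockdown sample 3 lay within the control range in CPM and the others below it. The log2 fold change was -0.11 (SE 0.0597, 95% interval -0.24 to 0.03, edgeR adjusted p = 0.24). BAX passed in none of the 16 alternatives, which lay between -0.17 and -0.05. The ratio of BAX to BAK1 in FPKM was 0.7476, 0.7312 and 0.7422 in control cells and 0.8393, 0.9861 and 0.969 in knockdown cells. BAK1 was thus the more abundant effector transcript in control cells, and the 2 were closer in knockdown cells.

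Summed by role, as a description, the 3 guardians came to 197.22, 203.1 and 198.99 FPKM in control cells and 168.37, 170.48 and 171.11 in knockdown cells, and MCL1 made up most of each sum. The 5 BH3-only genes came to 31.21, 31.53 and 30.83 FPKM and then 33.93, 35.36 and 36.26. The effectors came to 30.32, 29.5 and 30 FPKM and then 25.18, 24.21 and 26.72. Guardian and effector sums were therefore lower in every knockdown sample, and the BH3-only sum higher. Within the BH3-only sum, mean FPKM was 4.81 in control and 8.3 in knockdown cells for BAD, but 11.18 and 9.64 for PMAIP1. Within the effector sum it was 17.2 and 13.15 for BAK1, and 12.7 and 12.22 for BAX, which did not pass.

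Another 13 genes of the family were listed, of which 12 were in the table and 10 had enough counts to test. BOK and BMF rose, none fell, and 8 did not pass. The share called was 20%, beside 22.8% of all tested genes. The median log2 fold change was 0.05. BOK (chromosome 2), an effector-like protein, had 401, 476 and 418 counts in control cells and 656, 628 and 640 in knockdown cells. The groups were apart, with a log2 fold change of 0.42 (SE 0.101, edgeR adjusted p = 0.015). The call for BOK was lost without control sample 1 (edgeR adjusted p = 0.055), control sample 3 (0.058) or knockdown sample 2 (0.056), and with the replicate block and the GC trend removed (0.065). BMF, a BH3-only protein tied to the cytoskeleton, had 60, 71 and 71 counts and then 144, 127 and 108. Its log2 fold change was 0.76 (SE 0.226, edgeR adjusted p = 0.037), a call lost in 9 of the 14 alternatives in which it could be fitted, with DESeq2 (adjusted p = 0.062), without a filter (0.070), with the replicate block (0.068), with the block and the GC trend removed (0.089) and in the fits without each of 5 samples.

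HRK, a BH3-only gene known mainly from neurons, had 29, 30 and 25 counts in control cells and 18, 6 and 4 in knockdown cells, with no overlap and a log2 fold change of -1.72 that did not pass (edgeR adjusted p = 0.080). Without knockdown sample 1 it passed, at -2.59. BBC3, which encodes the BH3-only protein PUMA, had 306, 326 and 291 counts and then 343, 320 and 402, and a log2 fold change of 0.06. BCL2L2, the gene of the guardian BCL-W, had a level of 9.39 FPKM in control and 9.42 FPKM in knockdown cells, below BCL2L1 and far above BCL2, and a log2 fold change of -0.04. The log2 fold change was 0.04 for BCL2L12, 0.02 for BCL2L13 and, for the mitophagy receptor genes BNIP3 and BNIP3L, 0.07 and 0.02. With the GC trend removed BNIP3L was at 0.14 and passed (edgeR adjusted p = 0.041), and with the replicate block too it was at 0.13 (0.029). BCL2L15 had at most 20 counts in any sample and a log2 fold change of 0.71, which was 0.44 without knockdown sample 1. BCL2A1 and BCL2L14 had at most 4 counts and could not be tested, and BCL2L10 was not analysed here.

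Around the family, 72 genes of the same pathway were listed and 70 tested. Of these, 6 rose and 16 fell, or 31.4%, and the median log2 fold change was -0.07. Beside these counts and those of each list below stand the shares over all tested genes, 22.8% called, 10.4% higher and 12.4% lower. Downstream of the mitochondria, 4 of 11 genes of the apoptosome and caspases passed. AIFM1, a mitochondrial flavoprotein linked to caspase-independent death, rose by a log2 fold change of 0.26 (adjusted p = 0.0011), and CASP9, the initiator caspase of the apoptosome, by 0.25 (0.036). APAF1, the scaffold on which CASP9 assembles, fell by 0.26 on the log2 scale (0.0012) and DFFA, the inhibitor of the caspase-activated nuclease, by 0.21 (0.0034), all by edgeR's quasi-likelihood test. CYCS, the cytochrome c gene, did not pass, at -0.06. The call for CASP9 was lost in 8 of 16 alternatives. Without the GC trend APAF1 was at -0.16 and still passed (edgeR adjusted p = 0.013).

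Of 7 inhibitor of apoptosis (IAP) genes tested, none rose and 3 fell, namely BIRC5 (survivin, log2 fold change -0.33, adjusted p = 0.0030), BIRC2 (-0.25, 0.0022) and BIRC3 (-0.13, 0.048), by edgeR's quasi-likelihood test. BIRC2 and BIRC3 encode ubiquitin ligases of the TNF receptor complex. Without the GC trend BIRC2 was at -0.12 and did not pass. BIRC3 lost its call in 11 of 16 alternatives. It was at -0.0011 without the GC trend (edgeR adjusted p = 0.99) and at -0.0019 with the replicate block too (0.98). The call was also lost under library size alone (-0.08), without a filter (-0.14), with both limma fits (-0.08 each) and without any 1 of 5 samples (-0.15 to -0.11). XIAP, the direct caspase inhibitor, was at 0.02.

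In the death receptor pathway, 3 receptors for the ligand TRAIL fell and the kinase gene RIPK1 rose, of 12 genes tested. TNFRSF10D, a decoy receptor without a working death domain, had 3355, 3393 and 3790 counts in control cells and 2082, 1582 and 1966 in knockdown cells. Its level fell by 51.9%, a log2 fold change of -1.06 (SE 0.0878, edgeR adjusted p = 8.0e-05), the farthest from 0 of the 70 genes. The death receptors proper also fell, TNFRSF10B with a log2 fold change of -0.33 (adjusted p = 0.00015) and TNFRSF10A with -0.26 (0.0010) in the same test. RIPK1 was at 0.21 (0.014), and at 0.18 without control sample 3, 0.19 without knockdown sample 1 and 0.19 without knockdown sample 3, where it did not pass. CASP8, named here after its values were seen, had 1995, 1913 and 1756 counts and then 2198, 2493 and 2466, and its log2 fold change of 0.19 did not pass (edgeR adjusted p = 0.10). It passed under library size alone (0.24), without the GC trend (0.27) and without knockdown sample 1 (0.26). FASLG and TNFRSF10C had too few counts to test.

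Of 19 genes for partners and turnover of BCL2 proteins, 3 passed, a share of 15.8%. The ubiquitin ligase HUWE1, which marks MCL1 for breakdown, rose by a log2 fold change of 0.19 (adjusted p = 0.0075). TPT1, whose protein binds MCL1 and BCL-XL, fell by 0.29 on the log2 scale (0.0049), and YWHAG, a 14-3-3 protein of the kind that holds phosphorylated BAD in the cytosol, fell by 0.25 (0.00036), by edgeR's quasi-likelihood test. The other 16 did not pass. Among them were the other listed 14-3-3 genes, YWHAB, YWHAE, YWHAH, YWHAQ, YWHAZ and SFN. Their log2 fold changes lay between -0.07 (YWHAE) and 0.06 (SFN).

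Transcription factors that act on BCL2 family genes went both ways. Of 11 tested, JUN rose and ATF4 and STAT3 fell. JUN, which can induce BCL2L11, rose by 0.68 on the log2 scale (edgeR adjusted p = 3.7e-05). ATF4, the stress factor that can induce PMAIP1, fell by 0.30 (0.00089) and STAT3, which can induce MCL1, by 0.20 (0.0021), both in the same test. The other 8 did not pass. Whether any of these factors acted on the BCL2 family genes here was not tested.

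A list of 10 genes of the DNA damage and stress response was tested as well, of which 1 rose and 4 fell, beside 10.4% and 12.4% of all tested genes. XPC, a DNA damage sensor, rose by a log2 fold change of 0.51 (adjusted p = 4.7e-05), while ZMAT3 (-0.46, 0.0012), SESN2 (-0.27, 0.015), AEN (-0.21, 0.0037) and MDM2 (-0.19, 0.0039) fell, by edgeR's quasi-likelihood test. CDKN1A, also named after its values were seen, had 4996, 4854 and 4897 counts and then 5043, 4758 and 5605, and a log2 fold change of -0.09 that did not pass (edgeR adjusted p = 0.26), though it passed without knockdown sample 3 at -0.14. On log2(FPKM + 1) with limma ZMAT3 was at -0.28 and MDM2 at -0.13, and both passed. The call for MDM2 was lost without the GC trend (-0.10), and that for SESN2 without control sample 2 (-0.24) or knockdown sample 1 (-0.24).

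**Figure D3:**
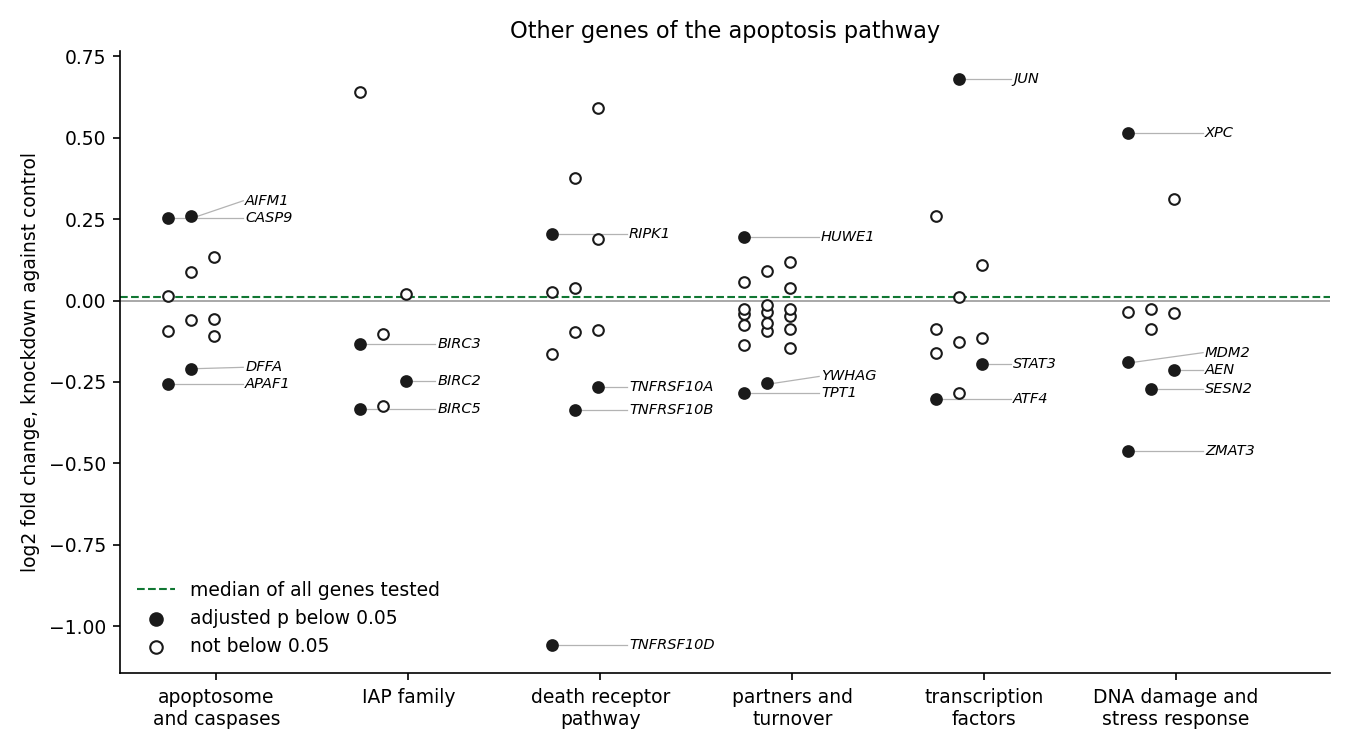
Log2 fold change of knockdown against control for the tested genes of the 6 pathway lists. Each point is a gene, filled and named where the adjusted p was below 0.05, and the dashed line is the median of all genes tested at 0.01. JUN and XPC are the named genes farthest above 0 and TNFRSF10D at -1.06 the one farthest below.

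Several of these genes share exon bases with a gene on the opposite strand, and whether the authors' counting used strand is not given in the sources used here, so reads of such pairs cannot be told apart. BAD shares 404 of its 1708 exon bases with GPR137. GPR137 had 1070, 1340 and 1434 counts in control cells and 1677, 1551 and 1790 in knockdown cells, with a log2 fold change of 0.23 that did not pass (edgeR adjusted p = 0.15), and its part in the rise of BAD was not tested. BCL2L11 shares 727 of 6658 exon bases with MIR4435-2HG, which had 1822, 2016 and 1911 counts and then 2229, 2281 and 2235. In CPM it was also higher in every knockdown sample, at a log2 fold change of 0.08 that did not pass (edgeR adjusted p = 0.37), and its part in the rise of BCL2L11 was not tested. BCL2L1 shares 1424 of 3314 with ABALON, which had 403, 482 and 453 counts and then 311, 373 and 398 and fell by 0.45 on the log2 scale (adjusted p = 0.037, all by the same test). The gene that overlaps BAK1, GGNBP1, had at most 6 counts in any sample, and the pseudogene BAK1P1 had at most 35. XPC shares exon bases with AC093495 and AC090004, which had at most 104 and 49 counts.

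**Figure D4:**
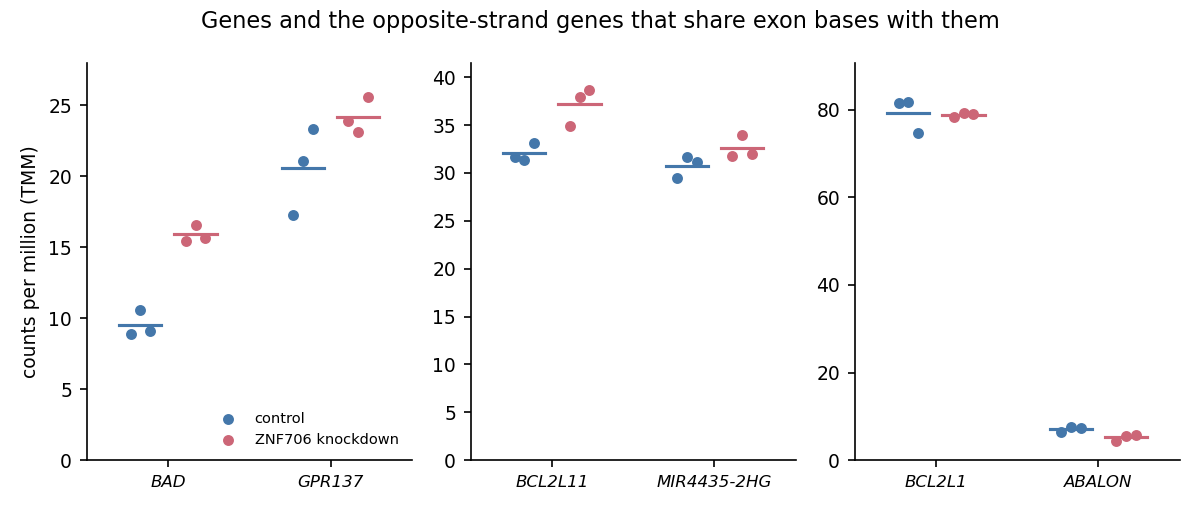
CPM, scaled with TMM, in each sample for 3 genes and the opposite-strand gene that shares exon bases with each. Points are samples and short lines are group means. BAD, BCL2L11 and MIR4435-2HG are higher in all knockdown samples, ABALON is lower in all of them, and the groups of GPR137 and BCL2L1 overlap.

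Across the 6 samples, the tested genes whose CPM on a log2 scale tracked MCL1 most closely were CASP4 (Pearson r = 0.9989), MAPK14 (0.9986) and MAP1LC3B (0.9985). These encode an inflammatory caspase, the kinase p38 alpha and an autophagy protein, and their log2 fold changes were -0.67, -0.33 and -0.43. The 6 points fall into 2 groups, and 891 genes had an r above 0.95 to MCL1, so this likeness mainly follows the difference between the groups.

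**Figure D5:**
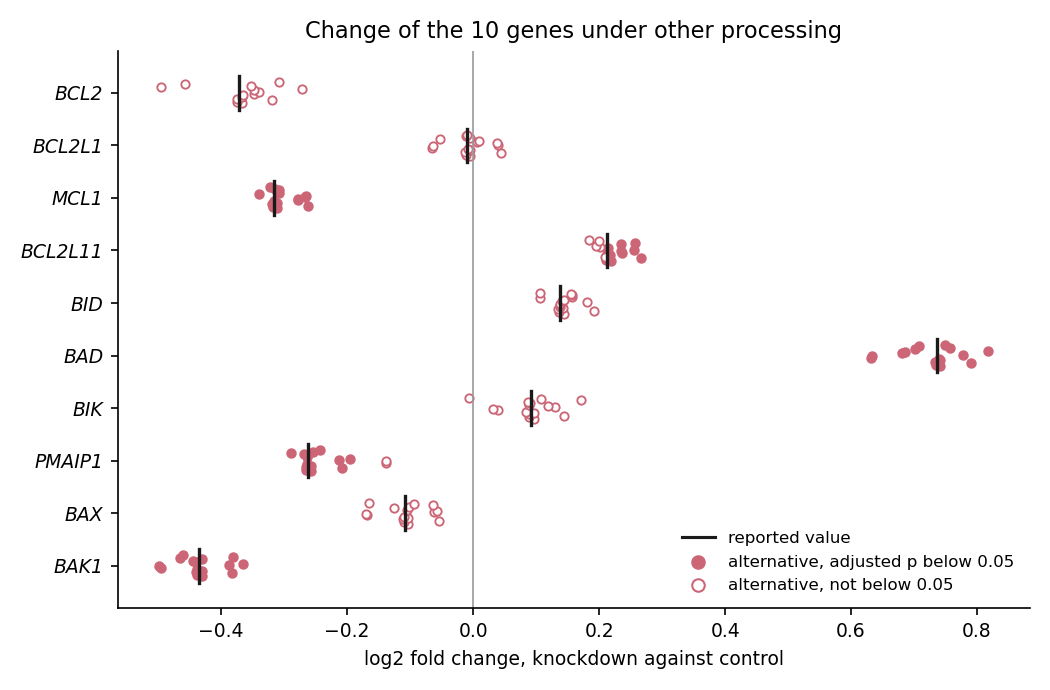
Log2 fold change of the 10 genes under other processing. The black line is the value reported, and each point is an alternative, filled where the adjusted p was below 0.05. The points of MCL1, BAD and BAK1 are all filled, those of BCL2L11 and PMAIP1 are filled in part, and those of BCL2L1 fall on both sides of 0.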

How the data were processed

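Total RNA of LM3 cells was sequenced on the Illumina NovaSeq system. Per the labels, cutadapt 1.9 and FastQC were used, and the study's methods name HISAT2. The counting program, strand setting and annotation release are not given in the sources used here. The authors deposited whole-number counts per gene, without normalization, and FPKM values, scaled by them to gene length and library size. The authors used DESeq2 for their own comparison. Gene positions are those of GRCh38, as a check against GENCODE release 29 showed for 99.98% of the 32092 genes found in both.

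Weakly counted genes were removed by filterByExpr and TMM scaling was applied. The groups were compared by the quasi-likelihood test (glmQLFit, glmQLFTest) in edgeR 4.0.16 under R 4.3.3, with a term for group only and Benjamini-Hochberg adjustment over 18390 genes. FPKM values were used for levels only, apart from limma 3.58.1 alternatives. Intervals are at 95%. With 3 samples against 3, an exact permutation test cannot go below p = 0.1, so none is given. Samples of a group differed by more than sampling noise (chi-square per gene 12.8 to 22.2 over 14132 genes, and 45.9 to 53.9 between groups).

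The 10 genes and all lists were chosen with earlier results of these data known. The text names all 10 genes, ZNF706, every other BCL2 family gene, the genes of each further list with an adjusted p below 0.05 (at most 6 a list) and the 3 most like the gene with the smallest adjusted p. CASP8, CDKN1A, CYCS, XIAP, FASLG, TNFRSF10C, YWHAB, YWHAE, YWHAH, YWHAQ, YWHAZ and SFN are outside this rule and were chosen after their values were seen. The same holds for the markers KRT8, KRT18, EPCAM, CDH1, ALB, AFP, TF, FGB, TTR, APOA1, HNF4A, PTPRC and PECAM1. It also holds for the overlapping genes and pseudogene. Some results under the rule are not reported here. The fit was tested on simulated data before use. The alternatives, DESeq2 1.42.0, other scalings and filters, a replicate block, GC content (longest GENCODE transcript, 98.58% of tested genes), limma-trend on log2(FPKM + 0.1) or log2(FPKM + 1) for a mean FPKM of at least 1, and leaving out each sample, are given at the end.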

Additional observations from a re-analysis of the deposited data

How the results depend on the processing

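MCL1, BAD and BAK1 kept their direction and passed in all 16 alternatives, BCL2L11 in 11 and PMAIP1 in 14, so 4 or 5 of the 10 genes passed in each. Over all genes, 4192 passed as reported, 2990 without a filter, 4361 with the replicate block and 2648 to 3424 with a sample left out, lowest without knockdown sample 2. Same-numbered samples did not deviate together (r = 0.03, -0.04 and -0.02), so the numbers were not taken as pairs, and under the block 5 of the 10 genes passed. Of the other BCL2 family genes 2 passed as reported. It was 3 with the GC trend removed, where BNIP3L passed too, and 1 with DESeq2, without a filter, with the replicate block, with both limma fits (BMF, with a mean FPKM below 1, was not fitted there and BOK passed) and with the block and the GC trend removed, where BNIP3L passed and BOK and BMF did not, and 0 to 2 with a sample left out (0 without control sample 1, control sample 3 or knockdown sample 2). The 70 other pathway genes gave 22 calls as reported, 19 to 23 with a sample left out and 20 to 28 otherwise.

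The sign turned only for genes that did not pass, and the cause was not tested. Under library size alone BCL2L1 was at 0.0438 and BCL2L2 at 0.0094, under limma on log2(FPKM + 0.1) at 0.04 and 0.0059, and on log2(FPKM + 1) at 0.0383 and 0.0053. Without the GC trend BBC3 was at -0.0752 and BCL2L12 at -0.0207, and with the replicate block too at -0.0813 and -0.0208. With a sample left out the ranges were -0.0529 to 0.0099 for BCL2L1, -0.0848 to 0.0067 for BCL2L2, -0.0073 to 0.1711 for BIK, -0.031 to 0.1086 for BBC3, -0.005 to 0.0805 for BCL2L12, -0.02 to 0.0745 for BCL2L13 and -0.01 to 0.0394 for BNIP3L. BOK lost its call in 4 alternatives. The standard errors were 0.166 for BCL2, 0.226 for BMF and 0.633 for HRK, against 0.0288 for MCL1.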
